A study of Mus musculus with 2 samples.

Results

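The genes described here encode the glutathione transferases and the UDP-glucuronosyltransferases, measured in mouse liver with and without Pnpla8. They were taken as all array probes outside the control set whose gene name begins with Gst and a class letter (a, k, m, o, p, z or t), with Mgst, or with Ugt1, Ugt2 or Ugt3. That gave 37 genes, 23 glutathione transferases with 37 probes and 14 UDP-glucuronosyltransferases with 18 probes, of 31093 gene names on the array. A ratio could be formed for 35 of them.

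Total liver RNA from 2 groups of C57BL/6N mice was hybridised to 1 one-colour array each. The wild-type group was Pnpla8+/+ and the knockout group Pnpla8-/-, a loss of the calcium-independent phospholipase A2 that cleaves membrane phospholipids. Each array carried RNA pooled in equal amounts from 5 livers, so the spread between animals is not visible. The age is 6 weeks in the sample labels and 8 weeks in the series text, no other treatment is named, and sex is not stated. With 1 pool per genotype there is no replicate check, no test was possible and no p-value is given. A gene is called higher or lower at a fixed ratio of 2-fold or more, and smaller differences are given as values. In whole liver, fewer cells of a type and less RNA per cell cannot be told apart.

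Both families carry out conjugation, the second phase of the handling of drugs, toxins and the body's own waste molecules. Glutathione transferases join glutathione to reactive, electrophilic compounds, and several also reduce lipid peroxides or isomerise metabolites. UDP-glucuronosyltransferases sit in the endoplasmic reticulum membrane and join glucuronic acid from UDP-glucuronate to bilirubin, steroids, bile acids and drugs. Hepatocytes hold large amounts of both, and the transcription factor NRF2 and the nuclear receptors CAR, PXR and PPARα are known to induce many members.

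Signals below, given with the wild-type pool first and the knockout pool second, are Feature Extraction processed signals, background-subtracted and linear, as deposited. Ratios are knockout over wild type on the log2 scale after each array was divided by its 75th percentile, which was 1207 (wild type) and 1018 (knockout). A gene's ratio is the median over its probes that were well above background on both arrays. Of the spots outside the control set, between 65.6% and 70.1% per array were well above background. The median ratio over 19409 measured genes was 0.04. The hepatocyte markers albumin (Alb, 0.24) and transthyretin (Ttr, 0.16) were bright on both arrays. Pnpla8, read by 1 probe, had a signal of 144.5 against 4.45 in the knockout pool, where it was not well above background. The log2 ratio spread little among repeated spots of 1 probe (median SD 0.05, 273 probes) and among different probes of 1 gene (median SD 0.10, 4023 genes); both are technical spreads within these arrays.

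Probes of near-identical family members can bind each other's RNA, so the sequences of several similar probes are shown first. Probes were compared only with each other and not with whole transcripts. Binding to genes without a probe, such as Gsta1, was therefore not checked. The Gsta2 probe, 60 bases long and placed by the array file at chr9:78178856-78178915 (build not given in the sources used here), begins with a stretch that recurs in the probes of Gm10639 and Gm3776, predicted genes of the same cluster. The first 30 bases of each are given 5′ to 3′, with capitals where a base differs from the Gsta2 probe in the ungapped overlap.
Gsta2: gccacagatactggcctctaattgtttgca
Gm10639: gccacagatactggcctctaatGgtttgca
Gm3776: ctggcctctaatGgtttgcaattataaaaA
Over the whole overlap the Gm10639 probe matched the Gsta2 probe at 53 of 60 bases and the Gm3776 probe at 46 of 50. Which of these genes each of the 3 signals reads is therefore uncertain.

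Among the mu class, 3 probes lie over the same part of 3 related transcripts, from bases 395 (Gstm7), 415 (Gstm6) and 337 (Gstm3) of each. Capitals mark bases that differ from the Gstm7 probe in the ungapped overlap.
Gstm7: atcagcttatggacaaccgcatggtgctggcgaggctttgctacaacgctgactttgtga
Gstm6: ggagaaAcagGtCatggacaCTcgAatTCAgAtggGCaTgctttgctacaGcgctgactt
Gstm3: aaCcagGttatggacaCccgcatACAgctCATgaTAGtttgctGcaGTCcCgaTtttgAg
The Gstm6 probe matched at 41 of 55 bases and the Gstm3 probe at 40 of 59. The pi class pair is closer in its shared stretch, with 30 of 35 bases alike, and capitals again mark the differences, here from the Gstp1 probe.
Gstp1: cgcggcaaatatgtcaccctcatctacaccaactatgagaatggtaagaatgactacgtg
Gstp2: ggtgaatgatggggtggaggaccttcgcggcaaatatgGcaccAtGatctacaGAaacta

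Of the 35 members with a ratio, 1 was at least 2-fold higher in the knockout pool, Gsta2, against 1.3% of all measured genes. None was at least 2-fold lower, against 1.85% of all measured genes. At 1.5-fold, 3 members were higher, against 4.41% of all genes, and 1 was lower, against 6.0%. The log2 ratio was above 0 in 20 members (57.1%), and below 0 in 15, where 56.8% of all measured genes were above 0 and 43.2% below. As a whole the members thus lay near the background. The glutathione transferases had a median of 0.25 with 14 of 21 above 0, and the UDP-glucuronosyltransferases a median of -0.10 with 6 of 14 above 0. Most members are bright, and among the 4817 genes at least as bright as the lower quartile of members the median was 0.08, with 65.5% above 0 and 34.5% below. The shares of these bright genes past 2-fold were 1.68% (higher) and 0.664% (lower), and past 1.5-fold 5.21% and 2.39%. Without scaling, the family medians were 0.0084 and -0.34 and the median of all genes -0.21, and with the E1A spike-in controls as scale the median of all genes was -0.11, so the sign of a small ratio depends on the scale. The split of all genes past 2-fold also moved, from 252 higher and 359 lower to 113 and 746 without scaling.

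**Figure D1:**
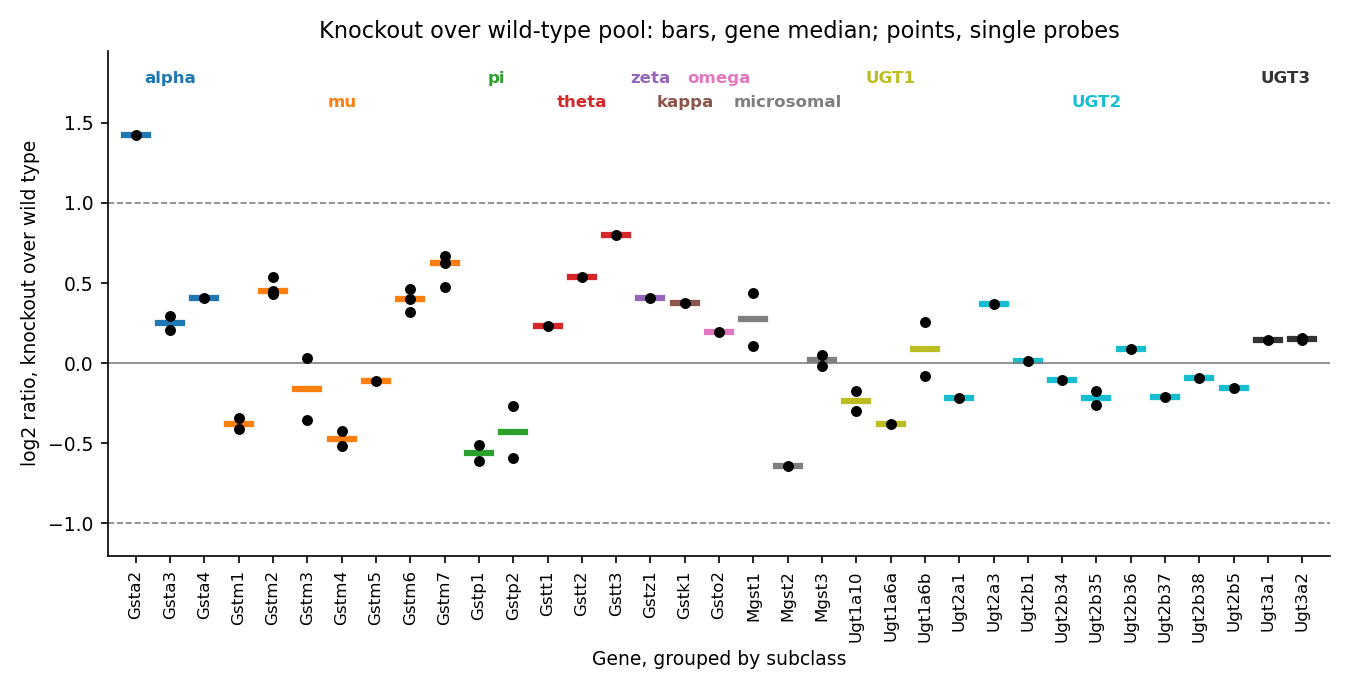
The log2 ratio of knockout over wild type is plotted for the 35 members with a ratio, grouped by subclass; coloured bars are the gene's median over probes, black points single probes, and dashed lines mark 2-fold. Gsta2 at 1.42 is the only gene beyond a dashed line, the pi genes lie below 0, the theta genes above it (Gstt1 at -0.011 without scaling) and the mu genes on both sides.

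The alpha class, the main glutathione peroxidase and steroid isomerase enzymes among liver transferases, was above 0 in all 3 members. Gsta2 had signals of 17258 and 39041, 2.68-fold higher after scaling. It stayed past 2-fold under every scaling and background setting tried, at its lowest with a log2 ratio of 1.18 without scaling. The predicted genes Gm3776 and Gm10639 of the same cluster were higher as well; in the RefSeq order Omt2a and Omt2b, which have no ratio, lie between them and Gsta2. Gm10639 had a log2 ratio of 1.40 as the median of 2 probes, 2.47-fold for the probe shown above (12927 and 26950) and 2.82-fold for the other (2878 and 6853). Gm3776 read 4436 and 8192, a ratio of 1.13, which fell short of 2-fold without scaling (0.88) and with the spike-in controls as scale (0.98). These 2 genes are not family members by name and were singled out after their values were seen; Gsta1, which lies between Gsta4 and Gm3776, had no probe under that name. Gsta3 read 182617 and 178233 with 1 probe and 163001 and 168962 with the other, ratios of 0.21 and 0.30. Gsta4, which acts on the lipid peroxidation product hydroxynonenal, was spotted 10 times, at geometric means of 2025 and 2268. Its 10 spot ratios ran from 0.34 to 0.45 (SD 0.04, spots of 1 probe), and its value of 0.41 was within 2-fold.

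The theta class, which handles small halogenated compounds, was above 0 in each of its 3 measured members, except that Gstt1 was at -0.011 without scaling. Gstt3 read 35106 in the wild-type pool and 51609 in the knockout pool and was 1.74-fold higher, the second highest ratio of the family. Gstt2 read 11869 and 14534, a ratio of 0.54. Gstt1 read 107317 and 106490, a ratio of 0.23. Gstt4, which lies between Gstt1 and Gstt2, was not well above background on either array (3.81 and 3.99) and has no ratio.

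The pi class had the lowest median of the subclasses, with both members below 0 under every setting tried. Gstp1, an enzyme with strong activity toward electrophiles that also binds stress kinases, read 43792 in the wild-type pool and 25925 in the knockout pool with the probe shown above, and 19226 and 10646 with its other probe. Its ratio was -0.56. Gstp2 read 41388 and 23205 with the probe shown above, a ratio of -0.59, and 159086 and 111444 with a second probe, a ratio of -0.27. All 4 probes were lower in the knockout pool, and the class median of -0.49 ran from -0.74 to -0.39 over the settings tried. The probes shown above matched at 30 of 35 bases, so the ratios of Gstp1 and Gstp2 may not be separate measurements. The third pi gene, Gstp3, is listed on the array under a clone name and so falls outside the name rule. Its ratio had the opposite sign, with signals of 1235 and 1732 and a ratio of 0.73.

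**Figure D2:**
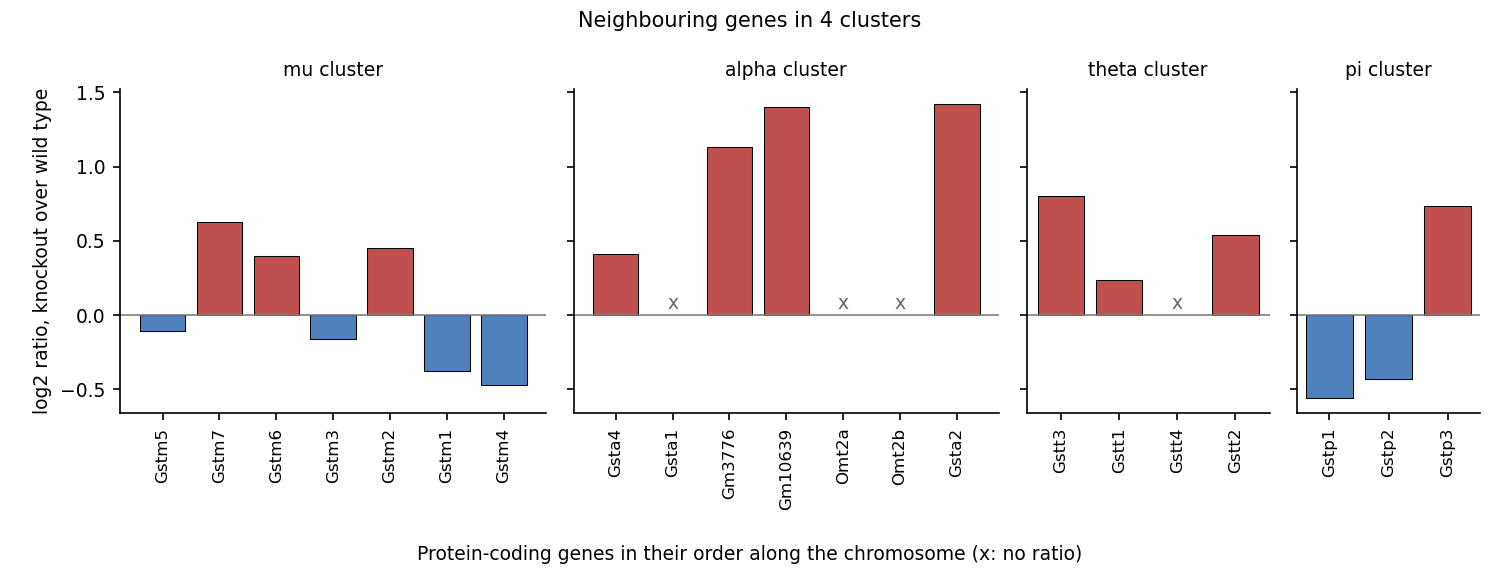
Bars give the log2 ratio of protein-coding genes in the order of the RefSeq table along 4 gene clusters, red above 0 and blue below; x marks a gene with no ratio. Gsta2, Gm10639 and Gm3776 lie between 1.13 and 1.42, with Omt2a and Omt2b, which have no ratio, between Gsta2 and the others. In the mu and pi clusters some adjacent genes lie on opposite sides of 0. Others lie on the same side, such as Gstm7 and Gstm6, Gstm1 and Gstm4, and Gstp1 and Gstp2. The bar of Gstm3 is a median of probes that disagreed.

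The mu class split within a single cluster of 7 neighbouring genes, so its median of -0.11 (0.03 by the brightest probe) describes few of them. In RefSeq order these are Gstm5, Gstm7, Gstm6, Gstm3, Gstm2, Gstm1 and Gstm4. The genes Gstm7, Gstm6 and Gstm2 had ratios above 0 with every probe, and Gstm1 and Gstm4 had ratios below 0 with every probe. Gstm7 was highest, at 0.62 over 3 probes, 1 of them dim (signals of 40.3 and 47.2, a ratio of 0.47). Its probe shown above, at chr3:107733188-107733247 in the array file, read 1385 in the wild-type pool and 1802 in the knockout pool, and another, spotted 10 times, gave ratios from 0.50 to 0.72 over the 8 spots used. Gstm6 read 3420 and 3970 with the probe shown and had a median ratio of 0.40, with its 3 probes between 0.32 and 0.46. Gstm2 had 0.45, its 3 probes lying between 0.43 and 0.54, the brightest of them at 31336 and 35735.

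On the other side, Gstm1, the mu enzyme long known from mouse liver, read 91137 in the wild-type pool and 57754 in the knockout pool with 1 probe and 219301 and 146178 with the other. Its ratio was -0.38. Gstm4 read 20249 and 11948 with 1 probe and 4369 and 2744 with the other, a ratio of -0.47. The signs of these 5 genes held under every setting tried. Gstm5 was at -0.11, with signals of 2300 and 1800. The probes of Gstm3 disagreed: the one shown above read 35764 and 23601, a ratio of -0.35, and the other 32337 and 27866, a ratio of 0.03. The array file places the first of these on chromosome 10 and not in the cluster. Likewise 1 of the Gstm1 probes is placed on chromosome 5 and 1 of the Gstm2 probes outside the cluster. Both gave ratios close to those of their genes' other probes. The brighter Gstm1 probe and the Gstm3 probe at 0.03 matched at 25 of 27 bases in their overlap, so each may also read the other gene's RNA.

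The remaining soluble classes have 1 or 2 genes each. Gstz1, the maleylacetoacetate isomerase of tyrosine breakdown, read 99648 in the wild-type pool and 111659 in the knockout pool, a ratio of 0.41. Gstk1, a transferase of mitochondria and peroxisomes, read 34604 and 37848, a ratio of 0.37. Gsto2 was dim, at 65.5 and 63.2, with a ratio of 0.19. Gsto1, which reduces glutathione adducts, has no ratio because its spot on the knockout array carried an outlier mark; with marked spots kept it read 47204 and 48837, a ratio of 0.29. All 4 values were within 2-fold.

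The microsomal transferases are membrane proteins unrelated in fold to the soluble ones. Mgst1, abundant in the liver's endoplasmic reticulum and outer mitochondrial membrane, had probes at 0.11 and 0.44, with signals of 184444 and 167903 for the first and 148919 and 169957 for the second. Mgst3 was near 0, with probes at -0.01 and 0.05. Mgst2, which can make leukotriene C4, had the lowest ratio of any member. Its probe read 110.3 in the wild-type pool and 59.6 in the knockout pool, 1.56-fold lower, and its log2 ratio of -0.64 was -0.24 with the normexp background.

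Alongside Mgst2, its relative Alox5ap, the leukocyte protein that presents arachidonate for leukotriene synthesis, had -0.78, and Ltc4s, the leukotriene C4 synthase, 0.02. Markers of Kupffer cells, the resident macrophages of the liver, were lower in the knockout pool. All 6 of Adgre1, Clec4f, Cd5l, Marco, Vsig4 and Timd4 were below 0 under each scaling and background setting tried. Their ratios ran from -1.34 to -0.85 with 4 at least 2-fold lower (3 to 6 over those settings), and their summed signal was 93087 in the wild-type pool and 36118 in the knockout. The part of these cells in the Mgst2, Gstp1 or Gstp2 ratios was not tested. Cholangiocyte markers lay between -0.20 and 0.34 (6 of 6 measured), with 4 below 0 (2 with normexp). Endothelial markers lay between -0.66 and 0.03 (5 of 5), with 3 below 0. Stellate cell markers lay between -0.57 and 0.03 (6 of 6), with 5 below 0. All endothelial and stellate cell markers were below 0 without scaling and with the spike-in scale. Hepatocyte markers ran from -0.15 for Apoa1 to 1.32 for Tat, with 7 of 8 measured above 0 (3 of 8 without scaling); the other 2 on the list carried an outlier mark.

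**Figure D3:**
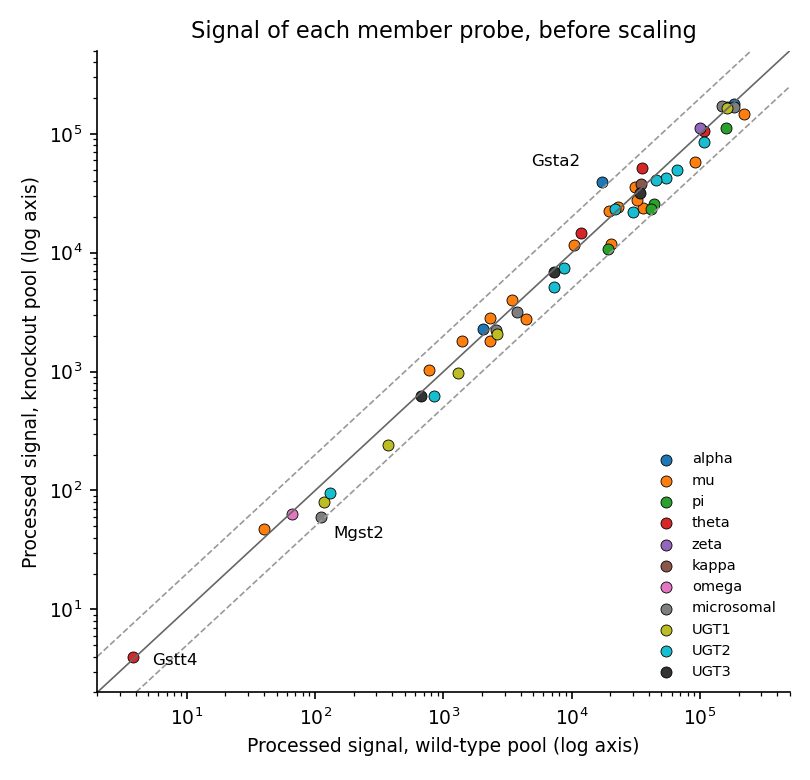
Each point is 1 probe of a member gene, by its processed signal in the wild-type pool and in the knockout pool before scaling, on log axes and coloured by subclass; the solid line marks equal signals and dashed lines 2-fold. Gsta2 (17258 against 39041) lies above the upper line, and Gstt4 (3.81 against 3.99) is the probe that was not well above background.

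The UDP-glucuronosyltransferases varied less, from -0.38 to 0.37, and none reached 1.5-fold. Genes of the UGT1 locus each have their own first exon and share the remaining exons, so a probe in a first exon reads that isoform (or a near-identical copy) and a probe near the end can read all of them. The pair of probes below, from bases 794 and 855 of their transcripts, lie far upstream of the shared end, at chr1:89952780-89952839 and chr1:90004249-90004308 in the array file, on the plus strand. No base is in capitals because they did not align to each other above the limit used here.
Ugt1a10: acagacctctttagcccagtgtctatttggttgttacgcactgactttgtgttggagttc
Ugt1a6b: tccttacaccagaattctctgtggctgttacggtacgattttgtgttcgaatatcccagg
The Ugt1a10 probe read 1297 and 972, a ratio of -0.17, and a second Ugt1a10 probe just before it read 116.6 and 80.2, a ratio of -0.30. The Ugt1a6b probe read 2617 and 2090, a ratio of -0.08. The other Ugt1a6b probe, from base 2212 of the transcript, read 162348 and 163589, a ratio of 0.26. A Ugt1a6a probe still farther along, from base 3238, read 370.3 and 240.5, a ratio of -0.38. The 3 upstream probes thus had ratios below 0, and the 2 near the end lay on opposite sides of it, all within 2-fold. Since probes near the end can read all isoforms, the Ugt1a6a value of -0.38, the lowest of the UDP-glucuronosyltransferases, may not belong to that gene alone. Ugt1a1, the enzyme that conjugates bilirubin, had no probe of its own among the members.

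The UGT2 genes, which conjugate steroids, bile acids and many drugs, had a median of -0.10 over 9 members, all within 1.5-fold, with 6 below 0 (8 with quantile scaling, the spike-in scale or no scaling). Ugt2a3 was the highest, at 21546 in the wild-type pool and 23479 in the knockout pool, a ratio of 0.37. Ugt2b36 had 0.09 and Ugt2b1 0.01. The remaining 6 were below 0, namely Ugt2b38 (-0.09), Ugt2b34 (-0.10), Ugt2b5 (-0.16), Ugt2b37 (-0.21), Ugt2a1 (-0.21) and Ugt2b35 (-0.22). Among these the brightest, Ugt2b38, read 108200 and 85729, and the dimmest, Ugt2a1, 130.8 and 95.1. With the normexp background the Ugt2a1 ratio was -0.013. Its neighbour Ugt2a2 had no probe under that name. The Ugt2b5 and Ugt2b37 probes matched at 46 of 55 bases, so their ratios may not be separate measurements. The dimmer of the Ugt2b35 probes also matched the Ugt2b37 probe, at 26 of 32 bases in their overlap. The UGT3 genes, which use sugars other than glucuronate, had ratios of 0.15 each, which fell below 0 without scaling and with the spike-in scale, with Ugt3a2 at 33856 and 31894 with its brighter probe and Ugt3a1 at 7313 and 6825.

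**Figure D4:**
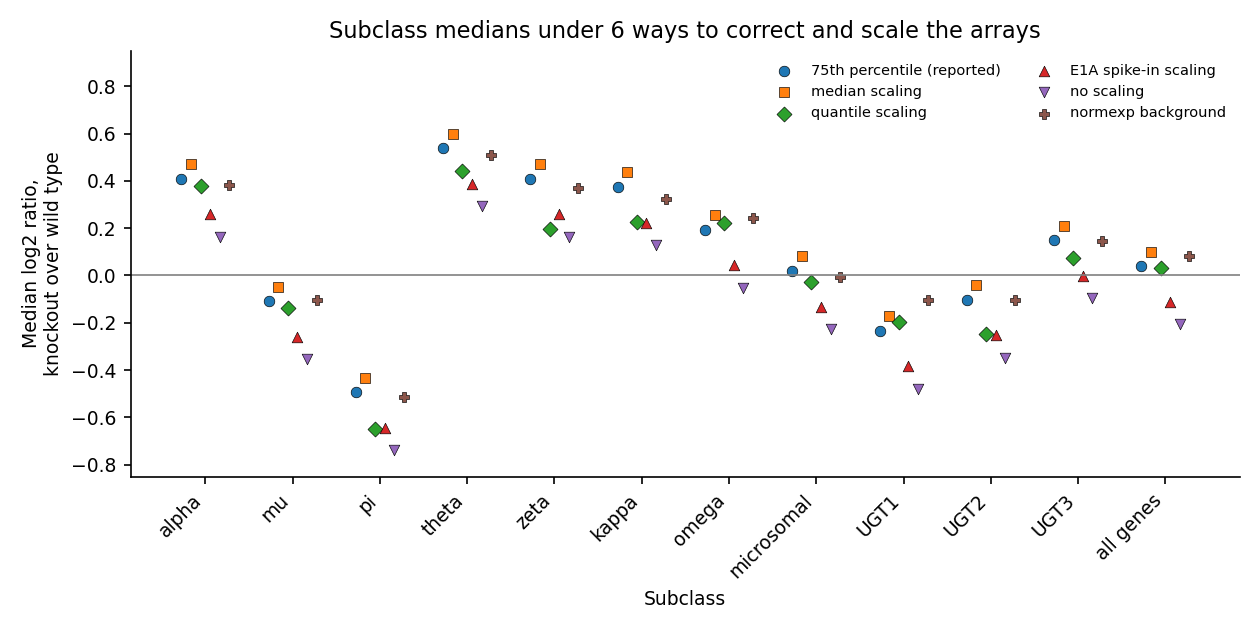
The median log2 ratio of each subclass, and of all measured genes, is plotted under 6 ways to correct and scale the arrays. The alpha, theta, zeta and kappa medians stayed above 0 and the mu, pi, UGT1 and UGT2 medians below it in all 6, while the omega, microsomal and UGT3 medians changed sign. The UGT1 median is over 3 genes, and the Ugt1a6a and Ugt1a6b probes near the shared end may not read separate genes. With the main scaling the brightest UGT1 probe, of Ugt1a6b, was at 0.26 and the other UGT1 probes were below 0.

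The 11 genes that supply the cofactors were within 2-fold, with 2 above 0 (4 with median scaling and none without scaling) and a median of -0.10. Gclc and Gclm, the subunits of the rate-limiting enzyme of glutathione synthesis, had -0.28 and -0.21, and Gsr, which recycles oxidised glutathione, -0.20. Ugdh, which makes UDP-glucuronate, had -0.07, Ugp2, the enzyme before it, 0.23, and Slc35b1, a nucleotide sugar carrier of the endoplasmic reticulum, -0.38, the lowest of the list. Among 12 measured enzymes that process conjugates, 10 were above 0 with a median of 0.09 (2 of 12 and -0.15 without scaling), none past 2-fold. Acy1, which deacetylates amino acids, mercapturates among them, was highest at 0.64 (signals of 1555 and 2045) and Ggt7 lowest at -0.05.

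The listed exporters, among them pumps for conjugates, had a median of 0.14 (-0.11 without scaling), with 7 of 12 above 0. The bile canalicular pump Abcc2 had 0.40, the sinusoidal pump Abcc3 0.17, and Abcb1a, highest of the list, 0.73. Abcc12 was 3.84-fold lower, with signals of 98.1 and 21.6 for its 1 measured probe, and it was within 2-fold with the normexp background (-0.70) and without the filter on dim probes (-0.69). Abcc1 was at -0.78.

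Of the transcriptional regulators, 11 of 16 were above 0, none past 2-fold, and the median was 0.22 (-0.03 without scaling). The xenobiotic receptors Nr1i3 (CAR) and Nr1i2 (PXR) had 0.64 and 0.52, the first being the highest of the list. Nfe2l2, which encodes NRF2, was the lowest at -0.25, with signals of 7686 and 5442, and its inhibitor Keap1 had -0.03. Other targets of these factors had a median of -0.13 over 20 measured genes, with 7 above 0 (10 with normexp). The NRF2 targets Nqo1 (-0.16), Txnrd1 (-0.20) and Srxn1 (-0.47) were below 0, and Cbr3 was 3.97-fold lower, at 1569 and 334. Highest was Cyp4a10, a PPARα target, at 0.90, and the CAR and PXR targets Cyp2b10, Cyp3a11 and Cyp2c55 had 0.50, 0.44 and -0.07. Relatives of the transferases outside the name rule were measured in 5 of 9 cases and lay between -0.78 and 0.24, from Alox5ap to the prostaglandin E synthase Ptges2.

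Promoter sequences were searched for the core of the antioxidant response element that NRF2 binds and for the core of the element that the aryl hydrocarbon receptor binds. RefSeq windows of 250 bases before the gene start (GRCm38.p6) were at hand for 33 of the 37 members. The first motif, TGACNNNGC on either strand, was present for 4 members (12.1%), namely Gsta3, Gstm5, Gstm7 and Mgst1, and for 3112 of 27025 genes. The second motif, GCGTG on either strand, was present for 5 members (15.2%), namely Gsta2, Gstm1, Gstm5, Gstp1 and Mgst3, and for 30.9% of all genes. The members holding either motif had ratios on both sides of 0. The window of Gsta2, the member past 2-fold, is shown 5′ to 3′ on the minus strand, chr9:78347146-78347395 in GRCm38.p6, with the second motif in capitals.
Gsta2: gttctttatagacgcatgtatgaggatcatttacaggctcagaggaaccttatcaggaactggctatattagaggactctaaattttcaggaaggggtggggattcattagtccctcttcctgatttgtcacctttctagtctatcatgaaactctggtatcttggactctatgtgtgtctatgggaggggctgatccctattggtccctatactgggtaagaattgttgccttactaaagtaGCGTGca
A match is a description of the letters in this window only.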

How the data were processed

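Liver RNA was profiled on 2 one-colour Agilent arrays, grouped by the genotype in the labels. Per the labels' protocols, RNA was column-purified, amplified and labelled with Cy3. The submitters' processing notes name Agilent Feature Extraction (version 11.5.1.1), and the deposited spot intensity is linear, background-subtracted processed signal per the file headers. The deposited value table holds the same intensity divided by 1207 (wild type) or 1019 (knockout); its column medians were 0.0800 and 0.0763. It is linear and not centred. No source used here explains those constants, but they lie close to the 75th percentiles of 1206.98 and 1018.24. The value table thus nearly repeats the scaling used here.

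Controls were removed, and so were spots marked as outliers in the feature or its background (896 and 913). The log2 signal minus each array's 75th percentile was averaged over spots of a probe. A probe counted as measured when well above background on both arrays on every spot. RefSeq (GRCm38.p6) gave names for 28330 of 39429 probes by accession and for 2204 by symbol; 54 of 55 member probes matched by accession and no member name changed. Probe pairs were aligned without gaps over at least 20 bases, at 60% identity or more. Members, gene lists and naming rule (ratios of at least 0.5 and the brightest probe of each subclass in full, the highest, lowest and past 2-fold of each list; other list genes, and Gm3776, Gm10639 and Gstp3, were picked after their values were seen) were chosen with earlier results of these data known. Alternatives were other scalings, normexp (offset 50, limma 3.58.1, R 4.3.3), the value table, other filters and summaries and a 1.5-fold threshold. Software was Python 3.11.15 (numpy 2.4.6, pandas 2.3.3), and the steps were tested on simulated data.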

Additional observations from a re-analysis of the deposited data

How the results depend on the processing

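The count of members past 2-fold (1 higher, 0 lower) was the same under every alternative scaling, background, filter, source of values and probe summary. The deposited value table nearly repeats the main scaling, so its equal count is not a separate check. With a 1.5-fold threshold the count was 3 higher and 1 lower. The glutathione transferase median of 0.25 was 0.10 with the E1A spike-in scale, 0.0084 without scaling and 0.066 with quantile scaling; the UDP-glucuronosyltransferase median of -0.10 was -0.25 with the spike-in scale and -0.34 without scaling. Over all measured genes the 252 higher and 359 lower became 143 and 570 with the spike-in scale, 113 and 746 without scaling, 131 and 124 with normexp, 979 and 1221 without the filter on dim probes, which tests more genes, and 856 and 1164 at 1.5-fold; with median scaling the split was 304 and 295. By their own construction, the median and spike-in scales and no scaling shift every gene by 1 amount; quantile scaling does not. Signs changed for 8 of 35 members without scaling, 6 with the spike-in scale, 4 with quantile scaling, 2 by the brightest probe (Gstm3 and Mgst3) and 1 with normexp (Mgst3). No replicate could be left out. No paired analysis was possible because each group has 1 array. Depth here is signal over background: Gstt4 was below it, and Gsto2, Mgst2 and Ugt2a1 were dim.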
